A study of Homo sapiens with 6 samples.

Results

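The aminoacyl-tRNA synthetases are the enzymes that attach each amino acid to its tRNA. They were taken from the table of raw counts by gene symbol: one letter followed by ARS with an optional final 1 or 2, together with EPRS1, FARSA, FARSB and TARS3. This gave 38 genes of the 20332 in the table, of which 21 encode cytosolic enzymes and 17, those with a final 2, encode mitochondrial enzymes. All 38 had enough counts to be tested, between 97 (TARS3) and 11072 (AARS1) in a sample.

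The cells were Huh-7, an established human hepatocellular carcinoma line. RNA of cells with stable overexpression of RAC3, a small GTPase, was sequenced in 3 samples and compared with 3 samples of the negative control, labelled wild type. By title all 3 are RAC3, and they were kept so, although the genotype given for 2 of them (RAC3 samples 2 and 3) reads RAC4 and RAC5. The samples are called independent, but whether they came from separate cultures, and whether the stable line is 1 clone or a pool, is not given in the sources used here, so p-values measure the spread between these samples, which may be technical. RAC3 itself stood at 35.6, 31.4 and 32.8 normalized CPM (a gene's counts relative to the scaled total of its library) in the negative controls 1 to 3. With overexpression it stood at 232.6, 239.6 and 225.4 CPM, a log2 fold change of 2.81 (adjusted p = 9.6e-18). Between 13855762 and 18199888 counts on genes stood behind each sample. All 8 liver and hepatoma markers were expressed. Their summed counts lay between 70382 and 96654 per sample. The 4 blood markers summed to 87 to 150, mostly CD68 (82 to 145), with HBB at 0 or 1. The 3 endothelial markers summed to 38 to 60, mostly PECAM1 (34 to 55), with CDH5 at 0 to 2. The 3 fibroblast markers summed to 1135 to 1723, nearly all of it COL1A1 and COL1A2, with DCN at 0 to 4. Some of these markers differed with RAC3: COL1A2 (log2 fold change 0.51), CD68 (0.47), FGB (0.30), APOB (0.20) and AFP (0.16) were higher, and TF (-0.56), TTR (-0.27) and COL1A1 (-0.22) were lower. Their part in the synthetase changes was not tested.

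Each synthetase recognises 1 amino acid and its tRNAs, and charged tRNAs are what the ribosome reads the genetic code with. Mitochondria translate their own few messages and import their own set of synthetases from the cytosol, mostly from separate nuclear genes. GARS1 and KARS1 serve both compartments, and mitochondrial glutamine tRNA is charged through glutamate and an amidotransferase instead of a dedicated enzyme. The enzymes fall into class I and class II by the fold of their catalytic domain. Several cytosolic ones form the multisynthetase complex on the scaffold proteins AIMP1, AIMP2 and EEF1E1. Many cytosolic genes, but few mitochondrial ones, are known to be induced by the transcription factor ATF4 when amino acids are short or the integrated stress response is active.

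The cytosolic enzymes were the more abundant messages, as measured per transcript length by the FPKM values that the authors deposited. In the negative controls the mean FPKM of a cytosolic member ran from 2.67 ± 0.316 (SD, n = 3) for TARS3, a second threonyl enzyme, to 461.3 ± 55.9 (SD, n = 3) for MARS1, the methionyl enzyme, with a median of 66.9. After MARS1 came AARS1 with 174.8 ± 4.68 and GARS1 with 160.6 ± 4.14 (SD, n = 3). The mitochondrial members ran from 4.14 ± 0.538 for WARS2 to 37.0 ± 1.98 for RARS2 (SD, n = 3), with a median of 10.05, and the median of all genes tested was 9.49. Of the cytosolic members, TARS3 and FARSB, the beta subunit of the phenylalanyl enzyme (13.3 ± 0.638, SD, n = 3), lay below the highest mitochondrial ones. The alpha subunit FARSA stood at 101.7 ± 0.887 FPKM (SD, n = 3). By counts the 2 subunits lay closer, with means of 187.9 CPM for FARSA and 91.6 CPM for FARSB in the negative controls. An FPKM value depends on the transcript length the authors used, which is not stated but follows from count, FPKM and library total. For MARS1 it came to 1293, 1017 and 1110 bases in the negative controls, against 3592 for its longest transcript. For AARS1 it came to 3441, 3442 and 3444 bases against 3477, and for FARSB to 6761 against 3369. By counts MARS1, with a mean of 531.3 CPM in the negative controls, lay below AARS1 with 613.9 CPM.

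**Figure D1:**
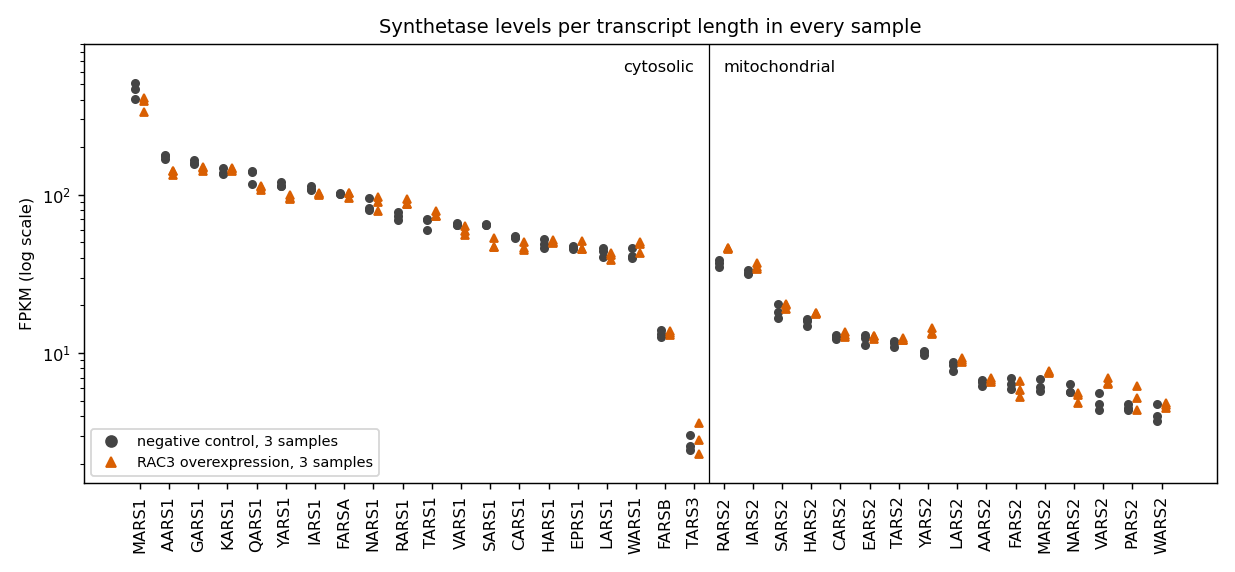
FPKM of 36 synthetase genes in every sample, on a log scale, ordered by their mean in the negative controls within each compartment. Circles are the 3 negative controls and triangles the 3 RAC3 samples. Most cytosolic genes lie above the mitochondrial ones, of which RARS2 and IARS2 are the highest, and FARSB and TARS3 lie lower.

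With RAC3 overexpression, 10 of the 21 cytosolic synthetases were lower and 1, RARS1, was higher, whereas 0 of the 17 mitochondrial synthetases were lower and 2, YARS2 and RARS2, were higher, of which RARS2 was not called once the libraries' trend with transcript GC content was removed. These calls were made at an adjusted p below 0.05 from the quasi-likelihood F test of edgeR (Benjamini-Hochberg, over 12941 tested genes), of which 15.3% were called lower and 13.3% higher. No synthetase changed by more than 1.5-fold, the threshold of the study, which together with an unadjusted p below 0.05 was passed by 4.68% of the genes tested. The called changes lay between 0.16 and 0.46 on the log2 scale in size. The median log2 fold change was -0.08 over the cytosolic members and 0.07 over the mitochondrial ones, against 0.0036 over all genes tested (quartiles -0.17 and 0.16). With 1 sample left out the cytosolic median stayed between -0.102 and -0.076, while the mitochondrial median lay between 0.019, without the negative control 2, and 0.086, and was 0.037 and 0.032 without the RAC3 samples 2 and 3. The summed level of the cytosolic members was 4867, 4939 and 4957 CPM in the negative controls and 4365, 4423 and 4410 CPM in the RAC3 samples. For the mitochondrial members it was 596.7, 586.5 and 604.6 CPM in the negative controls and 632.3, 624.6 and 637.6 CPM in the RAC3 samples. The groups did not overlap in either sum, and the sums moved in opposite directions. The sums were not corrected for the libraries' GC trend, and how often sums of other genes were separate was not counted. In bulk RNA, a lower level in every cell cannot be told apart from a loss in some of the cells.

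**Figure D2:**
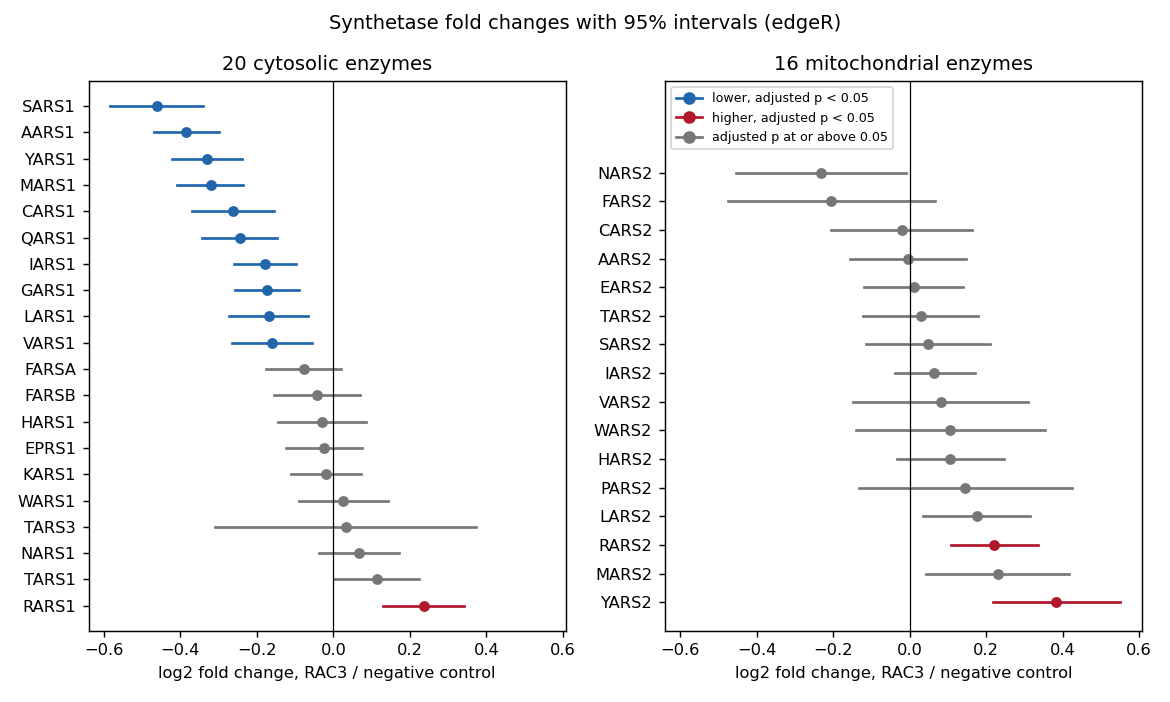
Log2 fold change of 20 cytosolic and 16 mitochondrial synthetases, RAC3 overexpression against negative control, with its 95% interval from edgeR. Blue and red points are genes with an adjusted p below 0.05, lower and higher, and grey points are the others. The 10 blue points are all in the cytosolic panel, and 2 of the 3 red points are in the mitochondrial panel.

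SARS1, the seryl enzyme, showed the largest decrease. It stood at 126.4, 127.2 and 125.5 CPM in the negative controls and at 86.8, 100.6 and 87.6 CPM in the RAC3 samples. All 3 RAC3 samples were lower, and the SD was 0.874 CPM in the negative controls and 7.75 CPM in the RAC3 samples. The log2 fold change was -0.46 (SE 0.0577, adjusted p = 9.5e-06). AARS1, the alanyl enzyme, had the smallest p of all members. Its level was 600.3, 624.1 and 617.3 CPM in the negative controls and 449.4, 482.1 and 480.5 CPM in the RAC3 samples, so that the groups were far apart. The log2 fold change was -0.38 (SE 0.0403, adjusted p = 1.4e-06). YARS1, the tyrosyl enzyme, which is also secreted as a cytokine-like fragment, fell from 286.1, 300.7 and 282.7 CPM to 224.3, 240.0 and 227.5 CPM. The groups did not overlap, with a log2 fold change of -0.33 (SE 0.0441, adjusted p = 2e-05). MARS1, which charges both initiator and elongator methionine tRNA in the cytosol, stood at 534.6, 529.9 and 529.4 CPM in the negative controls and at 401.8, 435.1 and 439.0 CPM in the RAC3 samples. The RAC3 sample 1 was the lowest, all 3 lay below the controls, and the log2 fold change was -0.32 (SE 0.0415, adjusted p = 1.4e-05).

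The other decreases were smaller. CARS1, the cysteinyl enzyme, went from 143.9, 138.2 and 138.3 CPM to 114.5, 124.0 and 111.9 CPM, a log2 fold change of -0.26 (SE 0.0514, adjusted p = 0.00085). QARS1, the glutaminyl enzyme, went from 266.2, 248.7 and 243.1 CPM to 206.1, 222.0 and 211.1 CPM, a log2 fold change of -0.25 (SE 0.0469, adjusted p = 0.00069), which became -0.14 (adjusted p = 0.009) after removal of the libraries' GC trend. In both genes all RAC3 samples lay below all negative controls. IARS1, the isoleucyl enzyme, was tightly grouped, at 499.5, 498.7 and 520.6 CPM against 450.4, 447.7 and 444.2 CPM with RAC3 (log2 fold change -0.18, SE 0.0383, adjusted p = 0.0018). GARS1, the glycyl enzyme of both compartments, stood at 376.6, 367.7 and 387.5 CPM against 338.0, 326.6 and 339.5 CPM with RAC3 (log2 fold change -0.17, SE 0.0404, adjusted p = 0.0034). For these 2 genes the groups were again separate, and the fitted levels fell by 11.6% and 11.3%. LARS1, the leucyl enzyme that also acts as a leucine sensor for mTORC1, stood at 174.3, 193.5 and 182.8 CPM against 168.5, 156.1 and 165.1 CPM with RAC3 (log2 fold change -0.17, SE 0.0499, adjusted p = 0.016). With each library's GC trend removed it was -0.28. The nearest samples of the groups, 174.3 and 168.5 CPM, were only a few percent apart. Without the negative control 2 the adjusted p of LARS1 was 0.1, and without the RAC3 sample 2 it was 0.074. VARS1, the valyl enzyme, had the weakest call of the 10, with a log2 fold change of -0.16 (SE 0.0499, adjusted p = 0.021), and was not called without the negative control 1 (adjusted p = 0.066) or without the RAC3 sample 1 (adjusted p = 0.11), and its log2 fold change was 0.03 after removal of the GC trend.

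RARS1, the arginyl enzyme, moved the other way. It stood at 150.5, 157.4 and 168.3 CPM in the negative controls and at 195.8, 181.9 and 183.3 CPM in the RAC3 samples. All 3 RAC3 samples were higher, with a log2 fold change of 0.24 (SE 0.0507, adjusted p = 0.0018). After removal of the libraries' GC trend it was 0.12 (adjusted p = 0.039).

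**Figure D3:**
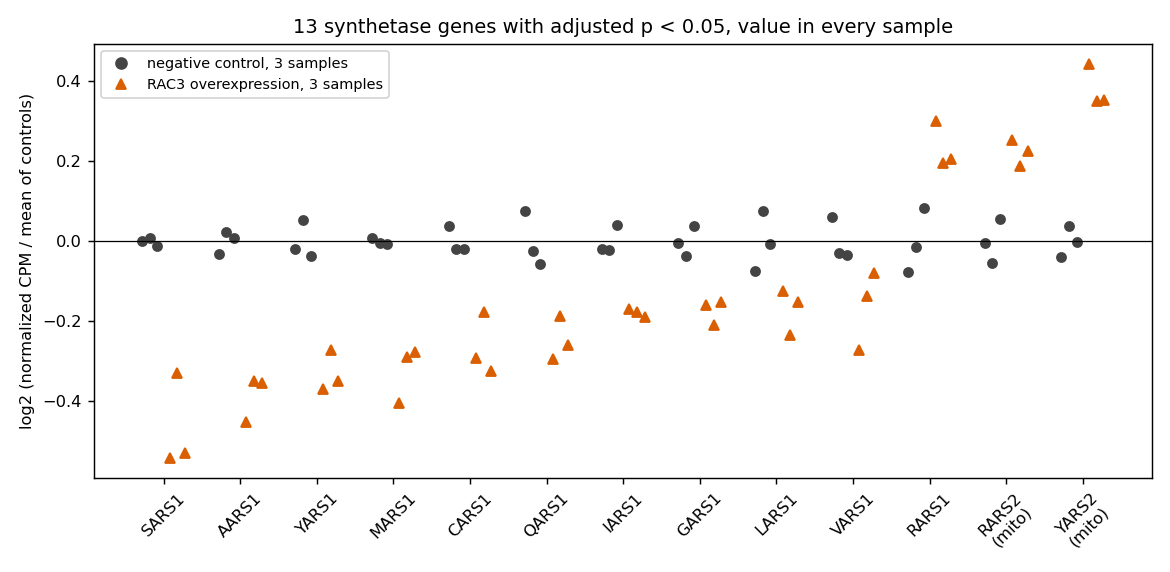
Normalized CPM of the 13 called synthetases in every sample, as the log2 ratio to the mean of the negative controls. In each gene the 3 triangles (RAC3) lie on 1 side of the 3 circles (negative control), below 0 for the first 10 genes and above 0 for RARS1, RARS2 and YARS2.

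Among the other 10 cytosolic members, log2 fold changes lay between -0.08 (FARSA) and 0.11 (TARS1), and their 95% intervals between -0.31 and 0.37. The interval of TARS3, which had the fewest counts, was the widest. KARS1, the lysyl enzyme of both compartments, had 281.8, 278.2 and 303.0 CPM in the negative controls and 275.2, 290.8 and 285.9 CPM with RAC3. The groups overlapped, with 1 RAC3 sample below and 1 control above all samples of the other group, and the 95% interval of the log2 fold change ran from -0.11 to 0.07. EPRS1, which holds the glutamyl and the prolyl enzyme in 1 chain, had 225.7, 234.1 and 229.4 CPM in the negative controls and 241.9, 218.2 and 217.5 CPM with RAC3. Its RAC3 samples lay on both sides of the controls (interval -0.12 to 0.08). WARS1, the tryptophanyl enzyme, which interferon gamma induces, had 91.0, 94.4 and 92.2 CPM in the negative controls and 93.6, 89.0 and 100.4 CPM with RAC3. The groups overlapped (interval -0.09 to 0.14). HARS1, the histidyl enzyme, had 93.3, 98.7 and 104.9 CPM in the negative controls and 97.4, 94.6 and 99.2 CPM with RAC3. Here too the groups overlapped (interval -0.14 to 0.09). TARS3 had 8.10, 9.92 and 6.97 CPM in the negative controls and 8.50, 9.96 and 6.88 CPM with RAC3. The spread within each group was far larger than the difference (interval -0.31 to 0.37). NARS1 and FARSB had log2 fold changes of 0.07 and -0.04, and their groups overlapped as well.

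Counted by separation of the samples, 11 of the 21 cytosolic members had all RAC3 samples below all negative controls and 2 had them above. Among all genes tested these shares were 21.6% and 20.9%. The member that was separate and lower but not called was FARSA (log2 fold change -0.08, adjusted p = 0.23), and the one separate and higher was TARS1 (0.11, adjusted p = 0.12). Among the mitochondrial members, 1 of 17 was separate and lower and 5 were separate and higher.

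Of the mitochondrial enzymes, YARS2, the tyrosyl enzyme, had the largest increase of all members. It stood at 21.1, 22.3 and 21.7 CPM in the negative controls and at 29.5, 27.7 and 27.7 CPM in the RAC3 samples. The groups were well apart, with a log2 fold change of 0.38 (SE 0.0797, adjusted p = 0.0014). The gene (chromosome 12, 32727490 to 32755902 on GRCh38) shares 18161 bases with DNM1L on the opposite strand, a mitochondrial fission gene that was also higher (log2 fold change 0.30, adjusted p = 0.00036). DNM1L had a mean of 1585 counts per sample, and because the library kit did not mark the strand, reads of the shared bases cannot be told apart. RARS2, the arginyl enzyme, had 76.7, 74.1 and 79.9 CPM in the negative controls and 91.7, 87.6 and 89.9 CPM with RAC3. All RAC3 samples were higher (log2 fold change 0.22, SE 0.0545, adjusted p = 0.0047), but with the GC trend of each library removed the change was 0.12 and not called (adjusted p = 0.1). HARS2, whose 5′ end shares 437 bases with the opposite-strand gene HARS1, had 36.82, 39.36 and 40.03 CPM in the negative controls and 40.57, 42.45 and 42.34 CPM with RAC3. The groups were separate by a narrow gap, and the change did not pass the test (log2 fold change 0.11, adjusted p = 0.25).

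The other mitochondrial members had log2 fold changes between -0.23 and 0.23, with 95% intervals between -0.48 and 0.42. MARS2 (0.23, adjusted p = 0.062) and LARS2 (0.18, adjusted p = 0.058) just missed the threshold, on the higher side and with separate groups. NARS2, the asparaginyl enzyme, was the only one separate on the lower side (-0.23, adjusted p = 0.11). At an unadjusted p below 0.05 the count of mitochondrial members was 5, with NARS2 lower and LARS2, RARS2, MARS2 and YARS2 higher. The share of all genes at that threshold was not counted, so the 5 are no result about these members. At an adjusted p below 0.05, 15.3% of all genes tested were lower and 13.3% higher. With that adjusted threshold DESeq2 and limma-voom also called 0 mitochondrial members lower and 2 higher. FARS2, with a log2 fold change of -0.21, had overlapping groups and an interval of -0.48 to 0.07. CARS2, AARS2, EARS2, TARS2, SARS2, IARS2, VARS2 and WARS2 lay between -0.02 and 0.11, and PARS2, the prolyl enzyme, at 0.15 with an interval of -0.13 to 0.42. The mitochondrial genes had fewer counts, from 135 to 2253 per sample, so that their intervals were wider than those of most cytosolic genes.

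Enzymes of the same amino acid were set against each other within each sample, as the log2 ratio of the cytosolic to the mitochondrial count. Such a ratio does not depend on library scaling. There were 18 such pairs, since EPRS1 was set against both EARS2 and PARS2, and FARSA and FARSB both against FARS2. In 12 of the 18 pairs the cytosolic change was below the mitochondrial one, and the median difference was -0.15. The ratio of YARS1 to YARS2 was 3.76, 3.75 and 3.70 in the negative controls and 2.92, 3.12 and 3.04 with RAC3, the largest shift (-0.71). The tyrosyl pair moved in opposite directions, with each enzyme called. The ratio of MARS1 to MARS2 was 4.91, 4.83 and 4.66 in the negative controls and 4.17, 4.25 and 4.30 with RAC3, a shift of -0.56. The ratio of SARS1 to SARS2 was 1.67, 1.96 and 1.83 in the negative controls and 1.302, 1.418 and 1.185 with RAC3, a shift of -0.52. In the seryl pair most of the shift lay on the cytosolic side, SARS2 having a log2 fold change of 0.05.

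The groups were also separate, with a lower ratio under RAC3, for the alanyl (-0.38), leucyl (-0.34), valyl (-0.25), isoleucyl (-0.24), cysteinyl (-0.24) and histidyl (-0.14) pairs, which makes 9 pairs in all. They were separate with a higher ratio for 1, the asparaginyl pair (0.30). How often ratios of other gene pairs were separate was not counted. Of single genes tested, 21.6% were separate and lower and 20.9% separate and higher. The ratios were not corrected for the libraries' GC trend. GC content differed within pairs in both directions (YARS1 55.7% and YARS2 49.9%, SARS1 51.5% and SARS2 61.2%). The arginyl pair was the exception among pairs with a called cytosolic enzyme. Its ratio was 0.97, 1.09 and 1.08 in the negative controls and 1.09, 1.06 and 1.03 with RAC3, since both enzymes rose by about the same amount. With 3 samples against 3, the smallest two-sided p that an exact permutation test allows is 0.1, and it was reached by the 10 separate pairs (0.18 after Benjamini-Hochberg adjustment over the 18 pairs).

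**Figure D4:**
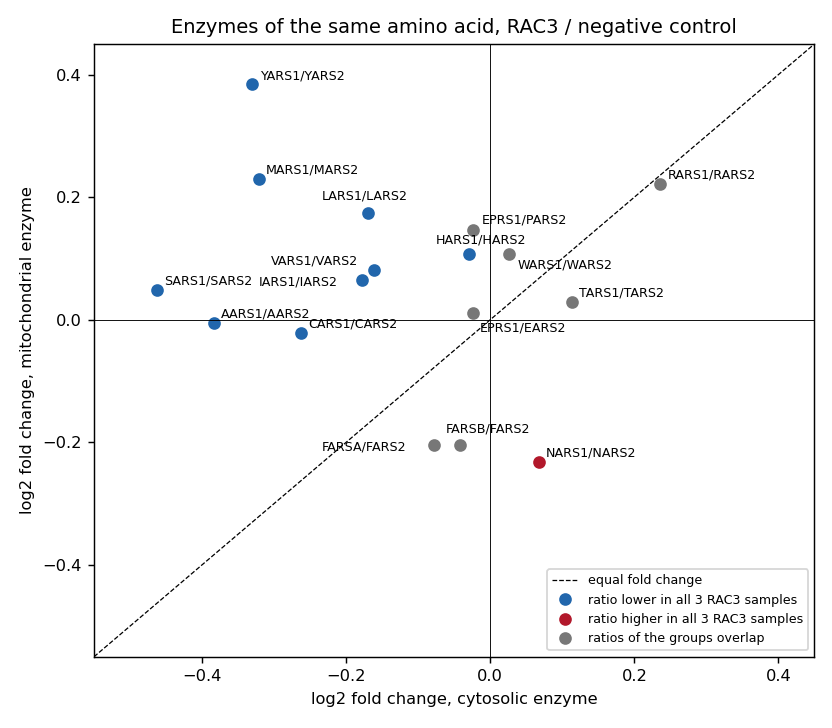
Log2 fold change of the cytosolic enzyme (x axis) against that of the mitochondrial enzyme of the same amino acid (y axis) for 17 pairs. The dashed line marks equal change, and the colour tells whether the within-sample ratio was separate between the groups. The 9 blue pairs lie above the line, with YARS1/YARS2 farthest from it, and RARS1/RARS2 lies on it.

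The 8 cytosolic enzymes of the multisynthetase complex did not move as a block. MARS1, QARS1, IARS1 and LARS1 were lower, RARS1 was higher, and 3, EPRS1 and KARS1 among them, were not called, with a median log2 fold change of -0.10. The scaffold AIMP1, which holds RARS1 in the complex, was higher (from 36.0 ± 2.10 to 44.6 ± 3.21 CPM, SD, n = 3, log2 fold change 0.31, adjusted p = 0.0035), whereas AIMP2 (-0.07) and EEF1E1 (0.04) were not called. Of the 13 cytosolic members outside the complex 6 were lower and 0 higher, with a median of -0.08. Over all genes tested the shares were 15.3% lower and 13.3% higher. The median GC content was 43.4% in the complex and 51.5% outside it, and these counts and medians are without GC correction. After removal of the libraries' GC trend EPRS1 in the complex (-0.11) and FARSB outside it (-0.15) were called lower, and VARS1 outside it was not called. By catalytic fold, 7 of 9 cytosolic class I genes were lower and 1 higher (median -0.18), against 3 lower and 0 higher of 11 class II genes (median -0.03), with EPRS1, which has both folds, left out. The class I genes were richer in GC (median 51.9% against 46.6%), with which fold changes moved in these libraries. After removal of the libraries' GC trend, there were 6 lower and 1 higher in class I (median -0.21) and 4 lower and 0 higher in class II (median -0.06), and the difference between the classes was not tested. The class I gene that was not called was WARS1. Among the mitochondrial members both called genes were class I, 2 of 9 (median 0.11), against 0 of 8 in class II (median 0.01). After removal of the libraries' GC trend YARS2 kept its call and RARS2 did not. LARS2 (class I, 0.21) and SARS2 (class II, 0.222) were then called higher, and NARS2 (class II, -0.305) was called lower.

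Grouped by a list of 13 cytosolic synthetases known as ATF4-induced, 9 were lower and 0 higher (median log2 fold change -0.17). Over all genes tested the shares were 15.3% lower and 13.3% higher. The 4 of this list that were not called were EPRS1, WARS1, NARS1 and TARS1. Of the 8 cytosolic members not on the list, QARS1 was lower and RARS1 higher (median -0.02). This split was not tested as such, and the list was written with earlier results of these data known.

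ATF4 binds, with C/EBP partners, an element whose core is TGATGNAA. This core was searched on both strands from 250 bases before to 50 bases after each start of the RefSeq promoter table (GRCh38.p14), in which 30 of the 38 members were found. It was present for 7 of 16 cytosolic members (43.8%), for 1 of 14 mitochondrial members (7.14%) and for 4.46% of all 27305 gene symbols in the table. All 7 cytosolic matches were on the ATF4 list, of which 10 had a promoter in the table, and 0 of the 6 other cytosolic members held it. Genes may be known as ATF4-induced because they hold this element, so list and core are no separate evidence. Of the 7 members that were called lower and had a promoter, 5 held the core. The lower members without a promoter in the table were not searched. The 8 matches are shown because 5 of them lie in cytosolic genes that were lower, and because NARS1 and TARS1 held the core without a called change. Each is 30 bases long, 5′ to 3′ on the strand of the gene, with the core in capitals (it reads TTNCATCA where it lies on the opposite strand).

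AARS1, lower, chr16:70289675-70289704, minus strand: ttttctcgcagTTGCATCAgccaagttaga
MARS1, lower, chr12:57488053-57488082, plus strand: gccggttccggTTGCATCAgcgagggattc
CARS1, lower, chr11:3057407-3057436, minus strand: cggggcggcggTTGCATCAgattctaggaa
IARS1, lower, chr9:92293692-92293721, minus strand: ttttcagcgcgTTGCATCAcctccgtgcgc
GARS1, lower, chr7:30594834-30594863, plus strand: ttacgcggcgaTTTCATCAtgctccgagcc
NARS1, not called, chr18:57621804-57621833, minus strand: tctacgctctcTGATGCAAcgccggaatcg
TARS1, not called, chr5:33440956-33440985, plus strand: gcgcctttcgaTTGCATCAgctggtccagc
YARS2, higher, chr12:32756076-32756105, minus strand: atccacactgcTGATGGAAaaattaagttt

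AARS1, MARS1, CARS1, IARS1 and TARS1 carried the same 8 bases on the opposite strand, and GARS1 differed from them within the core. In 6 of the 7 cytosolic genes the core lay within 33 bases of the start (MARS1 from -4 to 4, CARS1 from -2 to 6, IARS1 from -13 to -6, GARS1 from -33 to -26, NARS1 from 15 to 22 and TARS1 from 3 to 10). In AARS1 it lay from -187 to -180 and in YARS2 from -197 to -190. A match is a description of these letters only.

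The ATF4 targets and other genes of the integrated stress response were counted for comparison, without removal of the libraries' GC trend. The list of 25 came from general knowledge, with earlier results of these data known. Of the 25, 16 were lower and 1 higher, and the median log2 fold change was -0.19. Over all genes tested 15.3% were lower and 13.3% higher. ASNS, asparagine synthetase, fell from 425.3 ± 8.65 to 250.6 ± 5.85 CPM (SD, n = 3, log2 fold change -0.76, adjusted p = 2.6e-10). PSAT1 (-0.61) and PHGDH (-0.61), which make serine, and TRIB3 (-0.45), a pseudokinase induced by ATF4, were lower too. ATF4 itself was not called (547.2 ± 20.3 against 520.8 ± 14.2 CPM, SD, n = 3, adjusted p = 0.2), nor was DDIT3 (-0.02), whose gene shares 982 bases with MARS1 on the opposite strand. ATF3 was the gene that was higher (0.41, adjusted p = 0.001). CHAC1 (0.33), SLC7A11 (0.08), CEBPB (0.06) and SESN2 (0.05) lay above 0 without a call. DDIT4, with a log2 fold change of -1.45, had 112.5, 63.2 and 37.0 CPM in the negative controls, a spread far wider than that of any synthetase.

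The partners of the synthetases in tRNA charging and delivery were counted by compartment as well, in lists from general knowledge. Of 15 cytosolic partners 5 were lower and 2 higher (median log2 fold change -0.09), and of 8 mitochondrial partners 0 were lower and 3 higher (median 0.14). Over all genes tested 15.3% were lower and 13.3% higher, and the difference between these short lists was not tested. The values of the partners are without removal of the libraries' GC trend. The lower cytosolic genes were the elongation factor subunits EEF1A1 (-0.15), EEF1A2 (-0.80), EEF1D (-0.19) and EEF1G (-0.24), which bring charged tRNA to the ribosome or recycle the factor that does, and DTD1 (-0.27), which removes D-amino acids from tRNA. TRNT1 (0.30), which adds the CCA end to tRNAs of both compartments, was higher beside AIMP1, and the tRNA exporter XPOT was not called (-0.12, adjusted p = 0.052). The higher mitochondrial genes were GATC (0.23), a subunit of the amidotransferase for glutamine tRNA, the elongation factor GFM1 (0.31), and GFM2 (0.24), which acts in ribosome recycling. TUFM, the mitochondrial carrier of charged tRNA, was not called (-0.09, adjusted p = 0.18).

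Fold changes in these libraries moved with the GC content of the transcripts. Over 12863 tested genes the Spearman correlation between the log2 fold change and GC content was -0.51, and the median log2 fold change went from 0.15 in the 2573 genes lowest in GC to -0.18 in the 2573 genes highest in GC. Within the synthetases it was -0.57 over the 21 cytosolic and -0.24 over the 17 mitochondrial members, which share libraries and are no independent samples. The median GC content was 46.8% for the cytosolic and 50.8% for the mitochondrial members, against 48.2% for all genes tested. Among the cytosolic members it was 51.9% for class I against 46.6% for class II, and 51.5% on the ATF4 list against 46.0% off it. With each library's GC trend removed, 11 cytosolic members were lower and 1 higher, 1 mitochondrial member was lower and 3 were higher, and the medians were -0.11 and 0.12. Of the 13 called members, 11 kept their call. VARS1, the member richest in GC (62.6%), went to a log2 fold change of 0.03 (adjusted p = 0.67), and RARS2 (41.9%) to 0.12 (adjusted p = 0.1). FARSB (-0.15), EPRS1 (-0.11), NARS2 (-0.31), LARS2 (0.21) and SARS2 (0.22) gained a call. The ATF4 list then had 9 lower and 0 higher of 13 (median -0.21), and the other cytosolic members 2 lower and 1 higher of 8 (median -0.06).

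**Figure D5:**
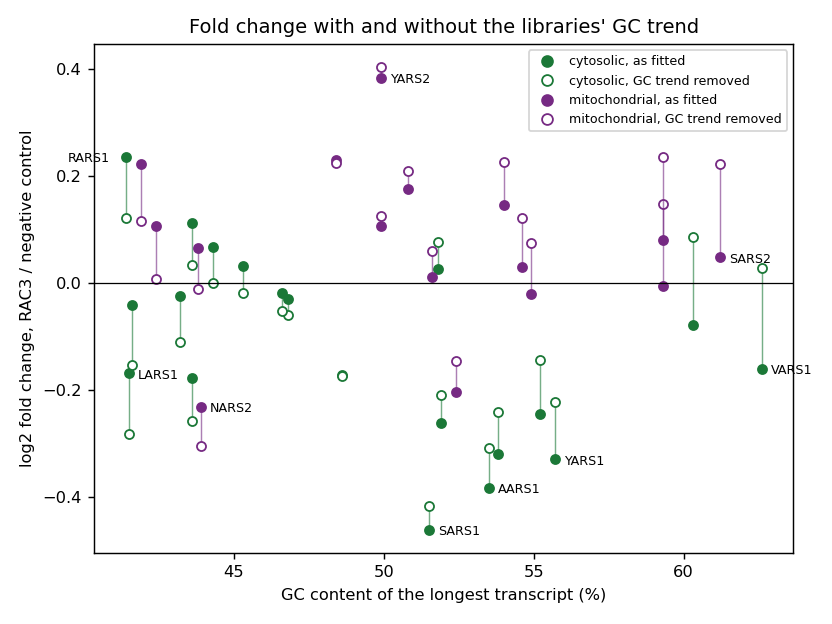
Log2 fold change of 36 synthetases against the GC content of their longest transcript, as fitted (filled) and with each library's GC trend removed (open), green for cytosolic and purple for mitochondrial. Lines join the 2 values of a gene. SARS1, AARS1 and YARS1 stay well below 0 and YARS2 well above, while VARS1 moves from -0.16 to 0.03.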

How the data were processed

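Polyadenylated RNA of 6 Huh-7 samples was sequenced on an Illumina NovaSeq instrument from libraries of a kit that does not mark the strand. The authors deposited raw counts per gene and sample without normalization, and FPKM values (fragments relative to transcript length and library size). The submitters' processing notes name Bowtie2 2.2.8, HISAT2, StringTie 1.3.1 and DESeq2. Their roles and the genome build are not given in the sources used here. Mean columns and comparison columns of the authors were not used.

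The count model was edgeR 4.0.16 (R 4.3.3): filterByExpr by group (12941 genes of 20332), TMM scaling (factors 0.972 to 1.026), and the quasi-likelihood F test, two-sided, RAC3 overexpression against negative control, with no covariate and Benjamini-Hochberg adjustment over all genes tested. The biological coefficient of variation was 0.0533. The steps were tested on simulated data. Gene positions, transcript length and GC content came from GENCODE release 29 (GRCh38). Pair ratios were compared by exact permutation (scipy 1.17.1).

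Values in every sample are given for at most 10 cytosolic and 8 mitochondrial called members with the smallest p, and for WARS1, GARS1, KARS1, EPRS1, LARS1, MARS1, TARS3, HARS1 and HARS2. Values of AIMP1, ASNS, ATF4, DDIT4 and DNM1L and the other genes outside the family were chosen after they were seen. The values of 2 members are not reported here, although the counts and medians include them. The members and all lists were chosen with earlier results of these data known. Alternatives were 3 other scalings, DESeq2 1.42.0, limma-voom (limma 3.58.1), 2 filters on low counts, a replicate term, leaving out each sample, removal of GC or length trends (lowess, span 0.3) and the study's fold threshold. limma on log2(FPKM + 0.5) was added after the data were seen.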

Additional observations from a re-analysis of the deposited data

How the results depend on the processing

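AARS1, CARS1, QARS1, RARS1, SARS1, YARS1 and YARS2 kept their call under all 17 alternative fits, although with the GC trend removed RARS1 went from 0.24 to 0.12 and QARS1 from -0.25 to -0.14. DESeq2's size factors and test, upper quartile scaling, limma-voom and both filters left the same 13 members called. Scaling by library size alone, which moved the median of all genes by 0.056 and the share of higher calls from 46.5% to 65.4%, gave 8 lower cytosolic members (without LARS1 and VARS1) and 2 higher ones, 4 higher mitochondrial members and medians of -0.022 and 0.122. With the GC trend removed the medians were -0.111 and 0.121, with 1 mitochondrial member lower. With the length trend removed the cytosolic median was -0.039. With limma on FPKM, 2156 genes and 5 lower cytosolic members were called, with medians of -0.021 and 0.119, and MARS1 (-0.29, adjusted p = 0.072), IARS1 (-0.12, 0.073), GARS1 (-0.13, 0.057), LARS1 (-0.09, 0.38) and VARS1 (-0.13, 0.13) were lower but not called. The FPKM fit also moved the median of all genes by 0.045 and the share of higher calls to 60.25%. At the study's fold threshold 605 genes and 0 members were called. Leaving out 1 sample gave 2630 to 3311 genes of 3691, 9 to 10 cytosolic members lower and 1 higher, 0 mitochondrial members lower and 2 to 3 higher, and medians of -0.102 to -0.076 and 0.019 to 0.086. The mitochondrial median was 0.019 without the negative control 2, 0.037 without the RAC3 sample 2 and 0.032 without the RAC3 sample 3. The replicate numbers did not pair the samples (correlations of deviations -0.13, -0.0624 and -0.0154 over 10169 genes), and a replicate block gave 3261 genes, with 10 and 1 cytosolic and 0 and 2 mitochondrial members, the same 13. The cause of each change was not tested.

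Signs turned only in members with changes near 0 and in VARS1. With library size alone the log2 fold changes became FARSB 0.015, HARS1 0.026, EPRS1 0.033, KARS1 0.037, CARS2 0.036 and AARS2 0.051. With FPKM they became FARSB 0.015, HARS1 0.037, EPRS1 0.025, KARS1 0.049, CARS2 0.040 and AARS2 0.048. With the GC trend removed they became VARS1 0.027, FARSA 0.085, TARS3 -0.019, NARS1 -0.001, CARS2 0.075, AARS2 0.148 and IARS2 -0.011, and with the length trend removed KARS1 0.020 and EARS2 -0.003. Leaving out 1 sample at a time turned some signs, with ranges of HARS1 -0.074 to 0.01, EPRS1 -0.076 to 0.002, KARS1 -0.048 to 0.015, WARS1 -0.02 to 0.067, TARS3 -0.102 to 0.171, CARS2 -0.079 to 0.021, AARS2 -0.047 to 0.016, EARS2 -0.025 to 0.035 and SARS2 -0.018 to 0.119.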

Other observations

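The deposited FPKM values and the counts did not always move together. The count divided by the FPKM value and the library total stands for the transcript length behind the FPKM. For AARS1 it was nearly the same in all 6 samples (highest over lowest 1.002). For VARS2, the mitochondrial valyl enzyme, the highest was 1.44 times the lowest, for MARS1 1.27 times, and for NARS1 and TARS3 about 1.21 times. VARS2 had 5.57, 4.77 and 4.36 FPKM in the negative controls and 6.91, 6.36 and 6.49 with RAC3, and its groups were separate (log2 fold change 0.40, adjusted p = 0.04 in limma on log2 FPKM). By counts the groups of VARS2 overlapped (log2 fold change 0.08, adjusted p = 0.62 in edgeR). VARS2 shares 5865 bases with GTF2H4 on the same strand. LARS1, which was lower by counts, had a log2 fold change of -0.09 by FPKM (adjusted p = 0.38 in limma on log2 FPKM). Its length hardly differed between samples (highest over lowest 1.036). By counts scaled by library size alone its log2 fold change was -0.113 (adjusted p = 0.1 in edgeR).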
